A study of Mus musculus with 22 samples.

Results

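The LADs of mouse embryonic fibroblasts (MEFs) treated with trichostatin A (TSA) were compared with those of untreated MEFs. The members were the 5 LAD lists, from 10 sequenced samples, whose labels name TSA (2 lists, embryos 1.8 and x17) or WT (3 lists, embryos 1.5, 1.8 and x17), of 11 lists from 22 samples in the whole series. All samples were primary MEFs of strain C57bl/6 taken from embryos at E13.5 and grown for at most 5 passages. TSA was given for 18 to 24 h before the virus carrying the Dam construct was added, and cells were collected at 60 h. The starting point of the 60 h, the TSA dose and any vehicle for the WT cells are not stated in the labels, where the treatment of WT is given as none. Embryos 1.5 and 1.8 carry replicate number 1 in the labels and embryo x17 carries number 2. The WT and TSA lists of embryo 1.8, and those of embryo x17, therefore form same-embryo pairs. Every list came from 1 library labelled experiment and 1 labelled control.

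DamID records contacts of chromatin with the lamina of the nucleus while cells are alive. The E. coli enzyme Dam is fused to a lamina protein such as lamin B1 and methylates adenines in nearby DNA, and unfused Dam serves as the control for accessibility. The regions so marked, lamina-associated domains (LADs), are large, gene-poor and mostly silent, with late replication and low histone acetylation. TSA inhibits class I and class II histone deacetylases and so raises histone acetylation. HDAC3, a class I deacetylase, is bound at the nuclear periphery by the inner membrane proteins LAP2β and emerin.

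The lists hold interval positions only, in mouse build mm9, without scores, signal or reads. How deeply each library was sequenced is therefore not known here, weakly and strongly enriched intervals look alike, and precision rests on the number of lists. In each list, on chromosomes 1 to 19, intervals less than 25 kb apart were joined and those over 100 kb were kept as LADs. The WT lists differed widely from each other before this step. That of WT embryo 1.5 held 4485 deposited intervals with a median of 86.5 kb, against 7306 (53.2 kb) for WT embryo 1.8 and 8917 (31.7 kb) for WT embryo x17. The TSA lists held 6054 (72.4 kb, embryo 1.8) and 5720 (74.4 kb, embryo x17). Results that move by over 1.5 times without a list are given with that value. With 3 lists against 2 there are 10 ways to split the lists, so an exact permutation test cannot give p below 0.1, and none of the 12 results tested together could pass 0.05. The labels name embryos and not separate cultures, so the p-values measure the spread between these lists.

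TSA-treated MEFs had less of the genome in LADs, with fewer LADs of 1 Mb or more. LADs covered 1377 Mb, 1507 Mb and 1429 Mb in WT embryos 1.5, 1.8 and x17, and 1356 Mb and 1302 Mb in TSA embryos 1.8 and x17. Both TSA totals were below all 3 WT totals. This was 59.5% ± 2.72 (SD, n = 3) of the 2415 Mb spanned by the lists in WT and 55.0% ± 1.57 (SD, n = 2) in TSA. The difference of the mean totals, TSA minus WT, was -109 Mb ± 46.4 (SE), and 2 of the 10 splits reached this size (exact permutation, two-sided, p = 0.2, Benjamini-Hochberg adjusted p = 0.3). Within embryos it was -151 Mb (embryo 1.8) and -127 Mb (embryo x17).

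The number of LADs did not separate the groups. The WT lists held 1849, 2187 and 2016 LADs (embryos 1.5, 1.8 and x17), and the TSA lists held 2218 and 2082 (embryos 1.8 and x17), so the groups overlapped. TSA minus WT was 133 LADs (two-sided exact permutation p = 0.4, adjusted p = 0.436), and within embryos it was 31 in embryo 1.8 and 66 in embryo x17. This difference rested on single lists. It was 48.5 without WT embryo 1.5, 217.5 without WT embryo 1.8, 64.7 without TSA embryo 1.8 and 201 without TSA embryo x17. Its sign also depended on the processing, at -1016 intervals on the lists as deposited and -24.7 for LADs over 500 kb. The median LAD length was 393 kb, 357 kb and 337 kb in WT, and 334 kb and 330 kb in TSA. Its mean difference was -30.4 kb (two-sided exact permutation p = 0.2, adjusted p = 0.3), -15.1 kb without WT embryo 1.5 and 16.3 kb on the lists as deposited. The median gap between neighbouring LADs was 223 kb, 177 kb and 186 kb in WT, and 245 kb and 257 kb in TSA, with no overlap between the groups.

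LADs of 1 Mb or more were fewer in TSA. There were 389, 411 and 381 of them in the WT lists (embryos 1.5, 1.8 and x17) and 350 and 346 in the TSA lists (embryos 1.8 and x17). Both TSA counts were below every WT count, and the difference of the means was -45.7 LADs ± 9.19 (SE). No other split of the 5 lists gave a difference as large (two-sided exact permutation p = 0.1, the smallest possible, adjusted p = 0.2). These long LADs held 861 Mb ± 19.2 (SD, n = 3) in WT and 704 Mb ± 9.53 (SD, n = 2) in TSA. The difference of -157 Mb ± 12.98 (SE) was larger than that of the total over all LADs. These class totals also drop when a long LAD is called as shorter pieces, so they do not show where LAD bases were lost. The shorter classes each had a higher mean number in TSA. LADs of 100 to 250 kb numbered 601, 791 and 789 in WT, and 835 and 805 in TSA, where both lists exceeded all WT lists. LADs of 250 to 500 kb numbered 482, 561 and 477 in WT, and 585 and 557 in TSA. LADs of 500 to 1000 kb numbered 377, 424 and 369 in WT, and 448 and 374 in TSA, and in both of these classes the groups overlapped. The N50, the length at which LADs that long or longer hold 50% of all LAD bases, was 1404 kb, 1243 kb and 1483 kb in WT, and 1031 kb and 1136 kb in TSA. The longest single LADs were alike in size, at 9.78 to 11.5 Mb in WT, and 11.5 Mb and 10.1 Mb in TSA.

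**Figure D1:**
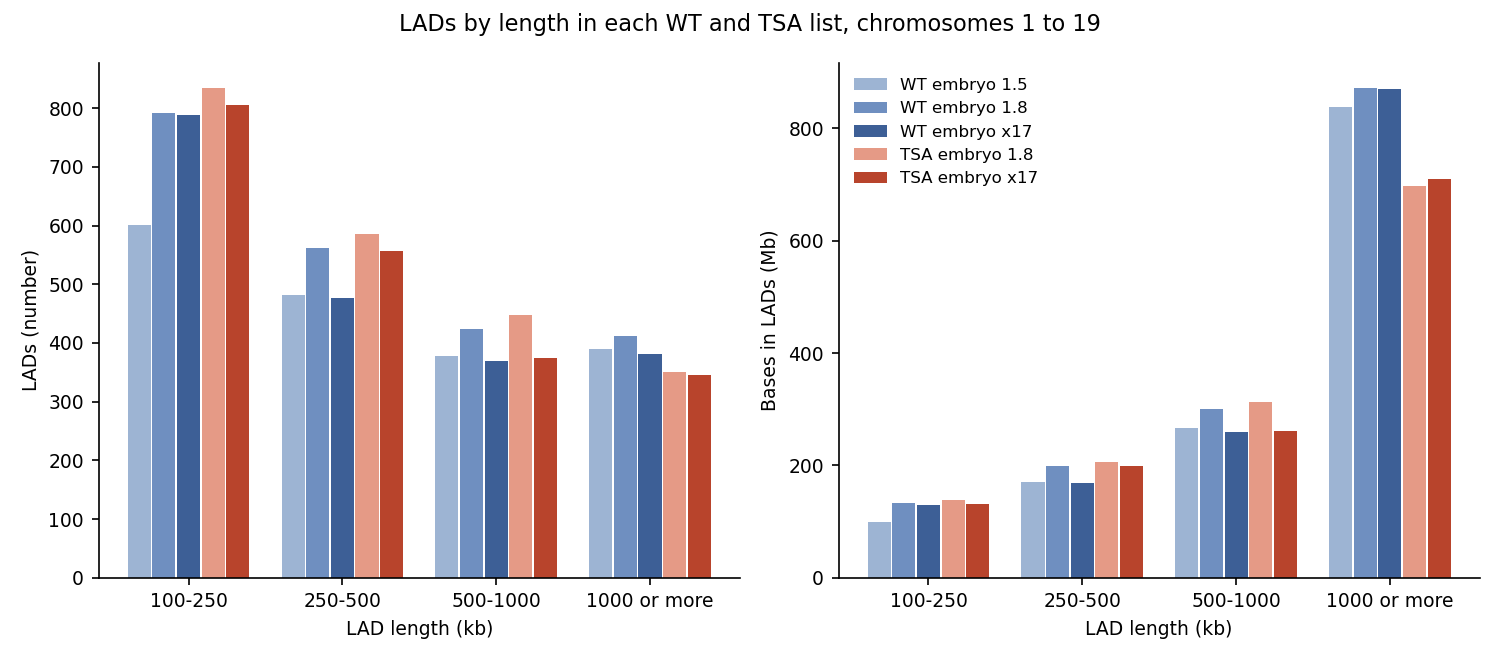
LADs per list in 4 length classes, as their number and as their summed length in Mb, for the 3 WT and the 2 TSA lists, with 1 bar per list. The TSA lists lie below all WT lists for LADs of 1000 kb or more, with 350 and 346 LADs against 381 to 411, and above all of them in number, with 835 and 805 against 601 to 791, for LADs of 100 to 250 kb.

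The fate of each WT LAD was then followed in the TSA lists, with the same comparison between WT lists as the background. Each of the 3 WT lists was set against both TSA lists, which gave 6 list pairs, and against the other WT lists, which also gave 6. Pairs that share a list are not independent, so their SD is a description, and the tests permuted the lists. The share of WT LAD bases that was also LAD in the other list (bases kept) was 85.9% from WT to TSA (82.7% to 88.3%) and 92.4% between WT lists (88.4% to 96.7%). No WT-to-TSA pair reached the lowest WT-to-WT pair, although these ranges nearly met. From 1 reference list at a time the gap was wider. LADs of WT embryo 1.5 kept 88.3% and 87.0% in TSA embryos 1.8 and x17, and 94.1% and 96.7% in the other WT lists. LADs of WT embryo 1.8 kept 84.9% and 82.7% in TSA, and 88.4% and 89.8% in WT. LADs of WT embryo x17 kept 86.3% and 86.5% in TSA, and 90.6% and 94.7% in WT. Each WT list was thus more like the other WT lists than like either TSA list. The TSA lists kept 89.3% and 93.0% of each other's LAD bases, in the 2 directions. The difference was -6.45 percentage points (two-sided exact permutation p = 0.1, the smallest possible, adjusted p = 0.2), and -2.98 points with lists reduced to one total length, by dropping the shortest LADs of each until its total matched the shortest list. In the same-embryo pairs 84.9% (embryo 1.8) and 86.5% (embryo x17) of the bases were kept, and 228 Mb and 193 Mb of WT LAD were lost.

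The lost bases came from LAD edges, from LADs lost entirely and from breaks inside LADs, in that order. In embryo 1.8 the edges held 52.7% of the lost bases, whole LADs 31.7% and interiors 15.6%. In embryo x17 these shares were 48.2%, 36.2% and 15.6%. Over the 6 WT-to-TSA pairs the edges held 49.7% ± 2.32 (SD) of the lost bases and over the WT-to-WT pairs 50.4% ± 4.67 (SD). The partition among edges, whole LADs and interiors in TSA thus lay within the range seen between WT lists, while the lost amount was larger, at 203 Mb ± 35.9 against 111 Mb ± 50.9 (SD, 6 pairs each).

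**Figure D2:**
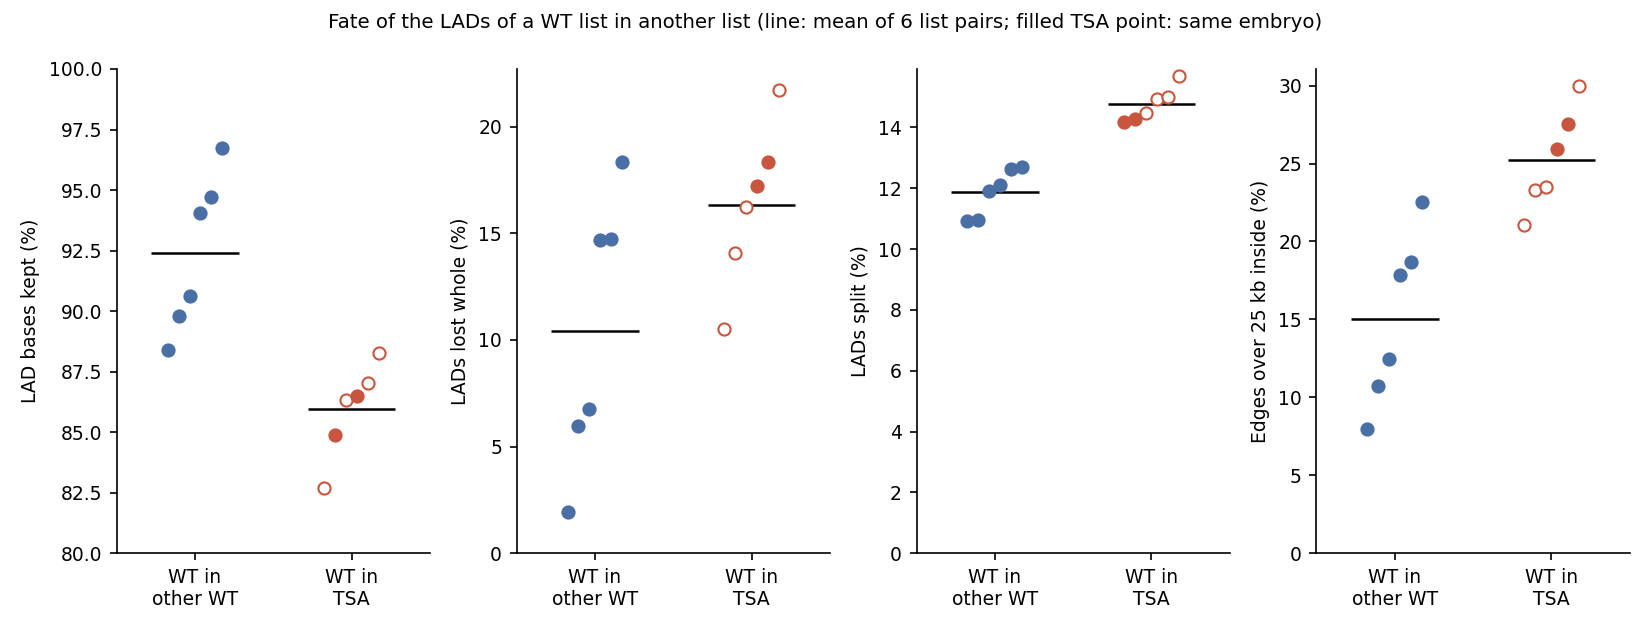
Bases kept, LADs lost whole, LADs split and edges retreated, each in percent, for the 6 WT-to-WT and the 6 WT-to-TSA list pairs, as points with a line at each mean, where filled TSA points are same-embryo pairs and the axis for bases kept starts at 80%. Bases kept lie at 88.4% or above between WT lists and at 88.3% or below from WT to TSA, and the split share is higher in every WT-to-TSA pair, whereas lost LADs and retreated edges overlap between the kinds of pair.

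Splitting of WT LADs was more frequent in TSA. A LAD was counted as split when 2 or more LADs of the other list each covered 25 kb or more of it. In embryo 1.8, 310 of 2187 WT LADs were split in TSA (14.2% of all WT LADs of that list), and in embryo x17, 288 of 2016 (14.3%). Over all 6 WT-to-TSA pairs 14.8% ± 0.563 (SD) were split, and between WT lists 11.9% ± 0.779 (SD). The WT-to-WT pairs reached 12.7% at most and the WT-to-TSA pairs 14.2% at least. The difference was 2.89 percentage points (two-sided exact permutation p = 0.1, the smallest possible, adjusted p = 0.2), and it was 1.87 points in same-embryo pairs alone, set against the WT-to-WT pairs of the same 2 embryos. Without the joining and length steps, on the intervals as deposited, it was 0.930 points, and the lists no longer separated (two-sided exact permutation p = 0.8). It was 4.86 points with joining under 50 kb and 11 points with lists reduced to one total length, so its size varied severalfold with the processing while its sign did not.

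Long LADs carried most of this splitting. Of WT LADs of 1 Mb or more, 46.4% were split in TSA (43.4% to 51.7%, 6 pairs), against 32.3% between WT lists (29.0% to 38.1%, 6 pairs). For LADs of 500 to 1000 kb it was 22.1% in TSA and 19.2% between WT lists. Below 500 kb the means went the other way. They were 5.32% in TSA and 6.51% between WT lists for 250 to 500 kb, and 0.210% and 0.560% for 100 to 250 kb. The ranges overlapped in each of these shorter classes. Breaks were gaps inside the LADs of 1 Mb or more, and a WT-to-TSA pair had 287 of them on average (272 to 314), against 162 (138 to 186) between WT lists. Breaks of 100 kb or more numbered 77.5 on average from WT to TSA (61 to 93) and 26.5 between WT lists (13 to 38). The median size of all breaks was 48.7 kb from WT to TSA and 39.8 kb between WT lists. In embryo 1.8, 106 of 411 long WT LADs had no TSA piece of 1 Mb or more. In embryo x17 the longest piece was under 1 Mb for 70 of 381, and 1 further LAD had no piece. Averaged over the 6 pairs, the longest piece was under 1 Mb for 22.7% of long WT LADs in TSA (18.4% to 25.8%) and for 14.1% between WT lists (11.5% to 18.0%). These measures describe the same lower number of long LADs as the count above and were not tested apart from it.

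Edges of WT LADs lay over 25 kb inside more often in TSA. An edge was called retreated when the outermost LAD of the other list that overlapped the WT LAD began or ended over 25 kb inside it. In embryo 1.8, 997 of 3620 edges had retreated (27.5% of the edges compared), and in embryo x17, 853 of 3292 (25.9%). The mean was 25.2% from WT to TSA (21.0% to 30.0%, 6 pairs) and 15.03% between WT lists (7.97% to 22.5%, 6 pairs), so the ranges overlapped. The difference was 10.2 percentage points (two-sided exact permutation p = 0.1, the smallest possible, adjusted p = 0.2), 5.81 points on the lists as deposited and 5.45 points for edges over 100 kb inside. The start and end edges retreated alike in TSA, at 25.3% and 25.1%. Most edges moved little. Edges within 25 kb of the WT edge made up 52.0% in embryo 1.8 and 56.6% in embryo x17, and 20.5% and 17.5% lay over 25 kb outside. Over all pairs the share within 25 kb was 50.7% to 56.6% from WT to TSA and 53.6% to 55.0% between WT lists. That share thus overlapped, and the kinds of pair differed in the balance of inward and outward shifts. Over the 6 pairs 22.5% of edges lay over 25 kb outside in TSA (17.5% to 27.7%) and 30.8% between WT lists (22.4% to 37.8%), with a median extension of 152 kb ± 25.6 and 192 kb ± 42.2 (SD). The median shift over all edges was 1.84 kb inward in embryo 1.8 and 2.44 kb inward in embryo x17, but its direction was not the same in every pair, with -1.56 kb (outward) from WT embryo 1.5 to TSA embryo 1.8. Shifts over 100 kb were outward more often than inward in all 6 WT-to-TSA pairs, at 10.6% to 15.6% against 8.04% to 12.4% of edges. Between WT lists they were 15.3% to 23.02% outward and 1.46% to 6.58% inward. Among retreated edges the median retreat was 76.9 kb ± 5.02 from WT to TSA and 62.4 kb ± 8.25 between WT lists (SD, 6 pairs each).

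LADs lost whole separated the groups less clearly. A LAD was counted as lost whole when it shared no base with the other list. In embryo 1.8, 377 of 2187 WT LADs were lost whole in TSA (17.2% of all), and in embryo x17, 370 of 2016 (18.4%). The mean was 16.3% from WT to TSA (10.5% to 21.7%) and 10.4% between WT lists (1.95% to 18.3%), and the ranges overlapped. Between WT lists it was 1.95% from embryo 1.5 to 1.8, 6.76% from 1.5 to x17, 5.95% from x17 to 1.8 and 14.7% from x17 to 1.5. From embryo 1.8, whose list was the longest, it was 18.3% to embryo 1.5 and 14.7% to embryo x17. The difference was 5.95 percentage points (two-sided exact permutation p = 0.1, the smallest possible, adjusted p = 0.2). The sign of this difference depended on the processing. When the shortest LADs of each list were dropped until all lists had the total of the shortest, the difference turned to -5.42 points, while that in bases kept stayed negative at -2.98 points. That step alters both the total length and the share of short LADs in a list, and their parts in this change cannot be told apart.

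The lost bases came from LADs of every length. In embryo 1.8, WT LADs of 100 to 250 kb, 250 to 500 kb, 500 to 1000 kb and 1000 kb or more lost 58.8 Mb, 53.4 Mb, 51.7 Mb and 64.2 Mb in TSA, and in embryo x17 they lost 56.3 Mb, 44.5 Mb, 38.7 Mb and 53.5 Mb. Most of the loss thus lay in LADs under 1 Mb, as it also did in every WT-to-WT pair. LADs of 1000 kb or more lost 53.5 Mb to 66.1 Mb over the 6 WT-to-TSA pairs and 12.8 Mb to 31.8 Mb between WT lists, without overlap. Those of 100 to 250 kb lost 30.7 Mb to 69.3 Mb and 9.66 Mb to 60.6 Mb, with overlap. The share kept was higher in longer LADs in both kinds of pair. WT LADs of 100 to 250 kb kept 58.8% of their bases in TSA (48.1% to 69.3%), and 71.3% between WT lists (54.6% to 90.3%), with overlapping ranges. Those of 250 to 500 kb kept 74.1% in TSA and 84.1% between WT lists, and again the ranges overlapped. From 500 kb upward they did not. LADs of 500 to 1000 kb kept 83.5% in TSA (80.2% to 85.1%) and 92.0% between WT lists (88.7% to 95.6%). LADs of 1000 kb or more kept 93.1% in TSA (92.4% to 93.9%) and 97.4% between WT lists (96.3% to 98.5%). The change in the kept share from WT-to-WT to WT-to-TSA pairs, for LADs of 100 to 250 kb minus that for LADs of 1000 kb or more, was -8.16 percentage points, and 4 of the 10 splits reached this size (two-sided exact permutation p = 0.4, adjusted p = 0.436). That contrast was -4.36 points without WT embryo 1.8 and -4.52 points without TSA embryo x17. Whole loss was rarer in longer LADs, from 35.9% of LADs of 100 to 250 kb to 0.0866% of LADs of 1000 kb or more, over the 6 WT-to-TSA pairs. The same order was seen between WT lists, at 24.1% for LADs of 100 to 250 kb, 5.96% for 250 to 500 kb and 0.50% for 500 to 1000 kb, and for the shortest class the ranges overlapped (24.96% to 46.5% in TSA, 5.66% to 41.2% between WT lists).

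**Figure D3:**
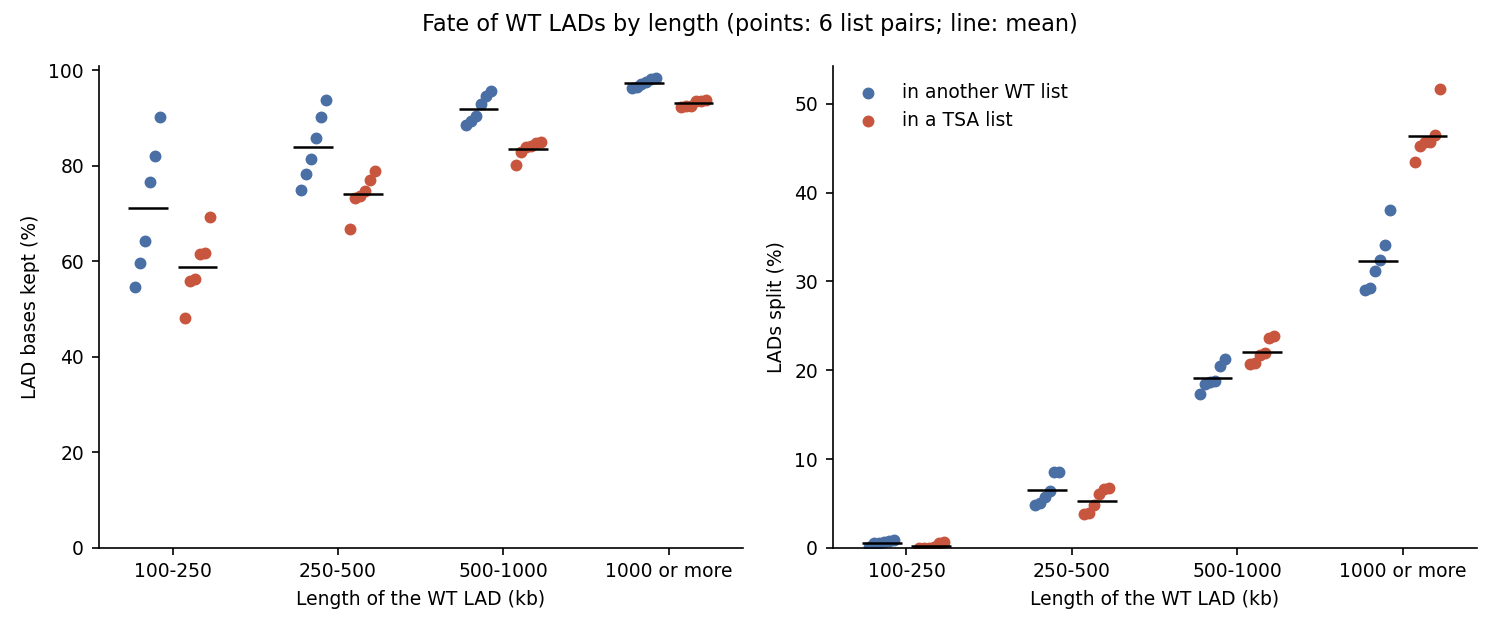
Bases kept, in percent, and the share of LADs split, in percent, for WT LADs in 4 length classes, with 1 point per list pair and the mean of the 6 WT-to-WT and of the 6 WT-to-TSA pairs. The kinds of pair overlap below 500 kb for bases kept and separate above it, and for LADs of 1000 kb or more 46.4% were split in TSA against 32.3% between WT lists.

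Bases that were LAD in all 3 WT lists (the WT core) gave a reference that rests on every embryo. The core held 1270 Mb, and its 2015 blocks of 100 kb or more were followed in TSA. Both TSA lists lacked 58.2 Mb of it (4.58%), against 43.4 Mb that only the TSA list of embryo 1.8 lacked and 47.3 Mb that only that of embryo x17 lacked. No other choice of 2 of the 5 lists left out as much of what the remaining 3 shared (one-sided exact permutation p = 0.1, the smallest possible, adjusted p = 0.2). The lost length was 105 Mb without TSA embryo 1.8 and 102 Mb without TSA embryo x17, since 1 list then had to lack a base and not both. It formed 1075 intervals, of which 219 were 100 kb or longer, and these held 37.3 Mb. Of the lost core, 54.3% lay at edges of core intervals, 35.1% in core intervals lost whole and 10.6% in their interiors.

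Few core blocks were lost entirely in both TSA lists, and these were short. No base of 107 of the 2015 blocks (5.31% of core blocks) was LAD in either TSA list, and 95 of the 107 were 100 to 250 kb long, 10 were 250 to 500 kb and 2 were 500 to 1000 kb. In the class of 100 to 250 kb this was 12.1% of 783 blocks. Under 50% was kept in both TSA lists for 140 blocks (6.95% of core blocks). Blocks split in both TSA lists numbered 88 (4.37%), and 62 of them were 1000 kb or longer, which was 18.9% of the 328 blocks of that length. An edge over 25 kb inside in both TSA lists was found for 251 of 3478 core block edges (7.22%). In contrast, 398 blocks (19.8%) were covered from end to end in both TSA lists.

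Breaks were compared between the TSA lists. Core blocks held 223 breaks in TSA embryo 1.8 and 229 in TSA embryo x17. Of these, 35.0% of the first set and 33.6% of the second met a break of the other list. Bases that were LAD in both WT embryo 1.8 and WT embryo x17 came to 1353 Mb. Of these, the TSA list of embryo 1.8 lacked 140 Mb (10.4%) and that of embryo x17 lacked 145 Mb (10.7%). Both lacked 85.3 Mb, which was 60.7% of the first set and 58.8% of the second. Of the same 1353 Mb, the BIX01294 lists of embryos 1.8 and x17 lacked 40.9 Mb (3.02%) and 19.1 Mb (1.41%). Both lacked 18.4% and 39.4% of these. The DZNep lists lacked 45.9 Mb (3.39%) and 38.3 Mb (2.83%), with 31.1% and 37.3% lacked by both. The share lacked by both also depends on how much each list lacked, so the drugs are not ranked by it. All of these shares use the same WT lists, and no test was made between them.

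A core built from all WT lists favours the WT lists by construction, so blocks were also built from 2 WT lists and scored in the third. Blocks shared by WT embryos 1.8 and x17 kept 94.0% of their bases in WT embryo 1.5, 89.8% in TSA embryo 1.8 and 89.4% in TSA embryo x17. Blocks shared by WT embryos 1.5 and x17 kept 98.1% in WT embryo 1.8, 91.1% in TSA embryo 1.8 and 90.9% in TSA embryo x17. Blocks shared by WT embryos 1.5 and 1.8 kept 95.5% in WT embryo x17, 90.3% in TSA embryo 1.8 and 89.0% in TSA embryo x17. The WT list left out kept more than both TSA lists in all 3 cases. It also had fewer blocks lost whole, at 9.42%, 0.981% and 5.73% in turn, against 9.14% to 14.2% in TSA.

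How many WT lists called a base went with its presence in TSA. Bases in 3 WT lists were LAD in 91.9% ± 0.217 of cases in TSA (SD, n = 2), bases in 2 WT lists in 47.2% ± 5.06 and bases in 1 WT list in 26.6% ± 4.84. Short blocks were also compared by their surroundings. Blocks of 100 to 250 kb were ranked by the LAD share of the 1 Mb on either side and put into 3 sets of 261 each. In the set with the least LAD around it 82.1% (TSA embryo 1.8) and 78.3% (TSA embryo x17) of the bases were kept, in the middle set 75.8% and 68.7%, and in the set with the most LAD around it 71.1% and 70.9%. The first set kept most in both TSA lists, while the other two were in opposite order in the embryos. Blocks of 1000 kb or more kept 96.1% to 97.7% in all sets. These shares are descriptions over neighbouring blocks and carry no test.

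Gains of LAD in TSA overlapped with those between WT lists. LAD bases that the reference WT list did not call made up 7.07% of TSA LADs (4.29% to 10.4%) and 7.61% of WT LADs (3.25% to 11.6%). The difference of -0.54 percentage points was within the spread of WT lists (two-sided exact permutation p = 0.7, adjusted p = 0.7). It changed sign without WT embryo 1.8, to 0.468 points, and without TSA embryo x17, to 0.748 points, and with lists reduced to one total length it was 2.99 points (two-sided exact permutation p = 0.1, the smallest possible). It was -1.72 points without WT embryo 1.5 and -1.82 points without TSA embryo 1.8. In same-embryo pairs TSA gained 76.8 Mb (embryo 1.8) and 66.4 Mb (embryo x17), within the 44.8 Mb to 175 Mb seen between WT lists. LADs with no base in the WT list of the same embryo numbered 173 of 2218 in embryo 1.8 (7.8% of TSA LADs) and 180 of 2082 in embryo x17 (8.65%), with median lengths of 151 kb and 145 kb. These new LADs held 30.3 Mb and 30.4 Mb. Extended edges held 36.4 Mb and 28.3 Mb, and bridges between WT LADs 10.1 Mb and 7.60 Mb. LADs that joined 2 or more WT LADs numbered 160 and 128 in the same-embryo TSA lists, against 220 to 276 between WT lists.

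Gains common to both TSA lists depended on the lists used. Bases in both TSA lists and in no WT list came to 11.8 Mb in 297 intervals, of which 46 were 100 kb or longer, and 4 of the 10 splits gave as much (one-sided exact permutation p = 0.4, adjusted p = 0.436). This length was 26.0 Mb without WT embryo 1.8, 19.1 Mb without WT embryo x17, 25.5 Mb without TSA embryo 1.8 and 52.0 Mb without TSA embryo x17. The gain was smaller than the 58.2 Mb lost from both lists, but this difference was not tested. It was not seen with lists reduced to one total length, where 38.1 Mb was lost and 38.2 Mb gained. At that length no other split gave as much gain, or as much loss (one-sided exact permutation p = 0.1 for each, the smallest possible).

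The loss reached every autosome, to unequal extents. Each of the 19 autosomes had less LAD in TSA in both same-embryo pairs and a lower mean share of bases kept in TSA than between WT lists. Both TSA totals lay below all WT totals on 12 of the 19, and on 10 of the 19 the kept shares of the 2 kinds of pair did not overlap. The share of the WT core lost from both TSA lists was highest on chromosome 10 (7.48%), chromosome 13 (7.38%) and chromosome 9 (6.41%). It was lowest on chromosome 7 (1.72%), chromosome 11 (2.66%) and chromosome 19 (2.94%). On chromosome 10 the LAD total was 72.0 Mb, 77.4 Mb and 75.2 Mb in WT, and 68.2 Mb and 64.2 Mb in TSA, so both TSA totals were below all WT totals. On chromosome 7 it was 93.4 Mb, 101 Mb and 95.4 Mb in WT, and 94.7 Mb and 91.5 Mb in TSA, and the groups overlapped.

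The shares kept per chromosome were compared between the same-embryo pairs. The share kept per chromosome in embryo 1.8 and in embryo x17 had Pearson's r = 0.899 and Spearman's rho = 0.882 over 19 chromosomes, which share each list's calling and are a description only. Part of this order was also present without TSA: the mean share kept between WT lists had r = 0.715 with the TSA pair of embryo 1.8 and r = 0.764 with that of embryo x17 over the 19 chromosomes, from 95.1% on chromosome 7 to 89.7% on chromosome 13, and these measures share WT lists. The share of core lost had r = 0.0108 with the LAD share of the chromosome in WT and r = 0.109 with its length, over the same 19 chromosomes. LADs of 1 Mb or more were fewer in TSA on 17 chromosomes in embryo 1.8 and on 15 in embryo x17. On 14 they were fewer in both embryos, and on no autosome were they more numerous in both.

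**Figure D4:**
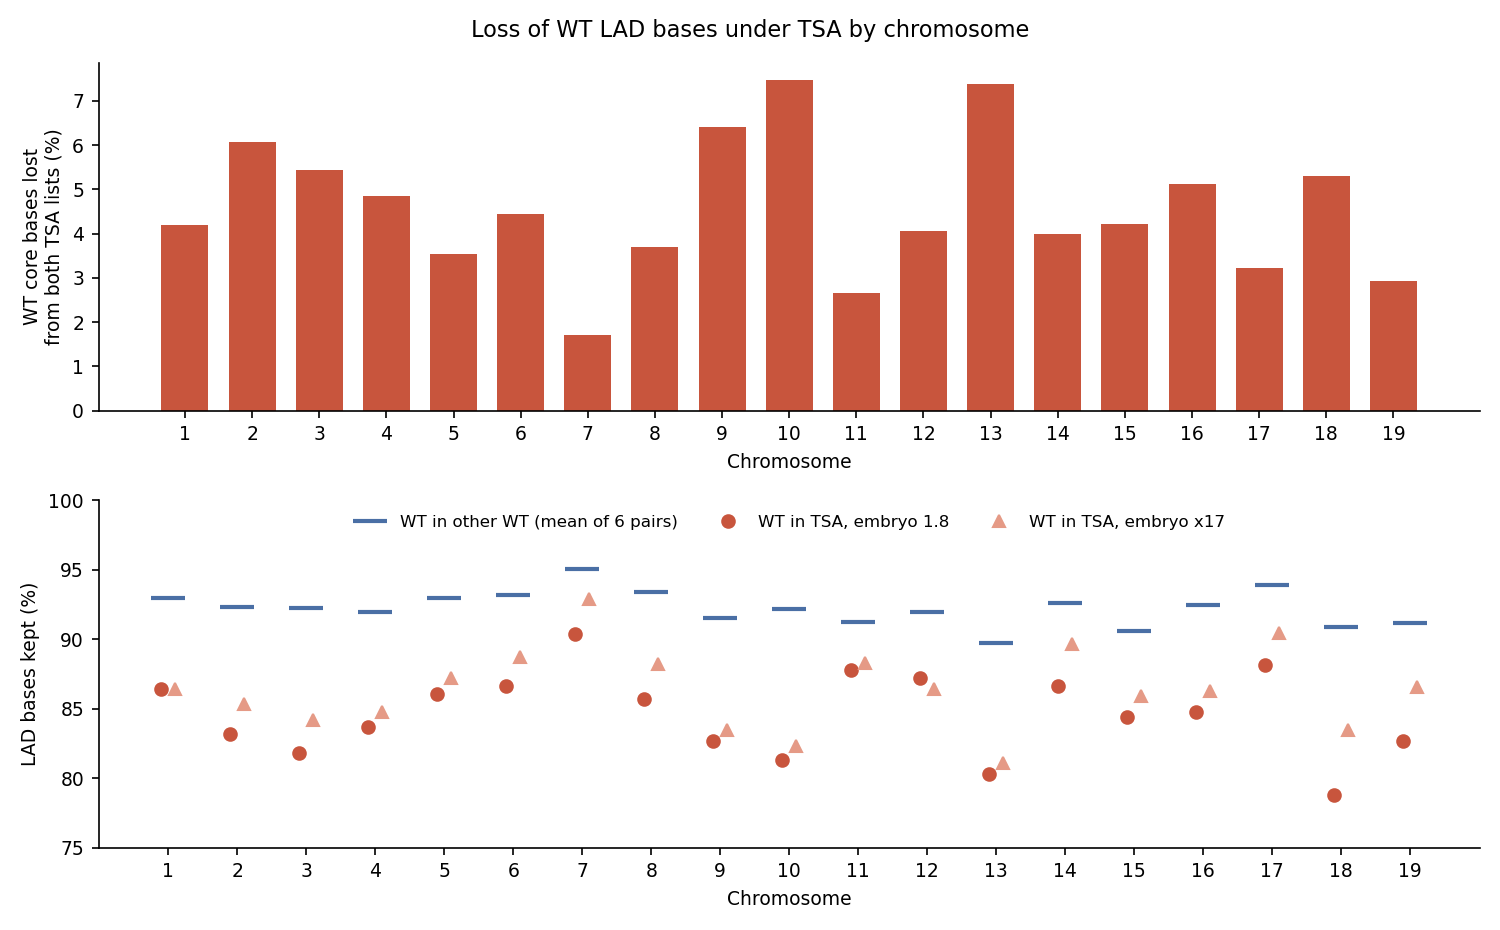
Share of the WT core lost from both TSA lists, in percent, and bases kept in each same-embryo pair, in percent, with the mean of the WT-to-WT pairs as a dash, for chromosomes 1 to 19, where the lower axis starts at 75%. The lost share runs from 1.72% on chromosome 7 to 7.48% on chromosome 10, and the pairs of embryos 1.8 and x17 follow each other across chromosomes with r = 0.899.

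The longest regions lost from both TSA lists were then described singly. They were chosen for being LAD in all 3 WT lists and in neither TSA list, so those values are not findings, and their levels in the lists of the other drugs were not used in the choice. BIX01294 inhibits the histone methyltransferase G9a and DZNep lowers histone methylation, including that by EZH2. Of the 8 longest lost regions 4 lay on chromosome 10, against 16 (7.31%) of all 219 lost intervals of 100 kb or more. Each of the 8 was covered over more than 50% in all 4 lists of BIX01294 and DZNep, as were 167 (76.3%) of the 219 and 1913 (94.9%) of the 2015 core blocks, so such coverage was common in the WT core. Genes are not named, because no gene positions in mm9 were used.

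The longest lost region was on chromosome 10 from 97222796 to 97766197 (543 kb). It was 1 LAD of 548 kb, 580 kb and 574 kb in WT embryos 1.5, 1.8 and x17. No TSA LAD lay within 1344 kb of it on either side, while the next WT LAD began 56.2 kb to 74.4 kb after it. The bases that followed it closely as LAD in WT were thus also not LAD in TSA. BIX01294 covered 83.1% of the region in embryo 1.8 and all of it in embryo x17, and DZNep covered all of it in both. The second longest was on chromosome 10 from 29727345 to 30242684 (515 kb), a single LAD of 515 kb to 663 kb in the WT lists. In TSA the flanking gap reached 702 kb before it and 403 kb after it in embryo 1.8, and 671 kb and 520 kb in embryo x17. The drug lists covered 92.8% to 100% of it.

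Other lost regions ranged from 381 kb to 483 kb. A region on chromosome 16 from 64888053 to 65371469 (483 kb) was a LAD of 486 kb to 531 kb in WT, and its neighbours on both sides remained LADs in both TSA lists, at 176 kb to 204 kb. A region on chromosome 10 from 15622601 to 16053974 (431 kb) was part of longer WT LADs in embryos 1.5 (1015 kb) and 1.8 (862 kb). Here TSA LADs resumed 37.7 kb and 90.6 kb before it, so its loss was a retreat of an edge relative to those WT lists. A region on chromosome 5 from 58591901 to 58983764 (392 kb) was the outer end of WT LADs of 5787 kb (embryo 1.5) and 4514 kb (embryo 1.8). In WT embryo x17 it was a LAD of its own, 29.8 kb from the next. The remaining regions lay on chromosomes 3, 18 and 10. The lowest coverage of any of the 8 in a BIX01294 or DZNep list was 64.0%, for the region on chromosome 18.

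The 88 core blocks split in both TSA lists kept a median of 92.7% of their bases in embryo 1.8 (36.2% to 99.3%) and 92.6% in embryo x17 (60.2% to 99.6%). The block with most pieces, on chromosome 17 from 89871733 to 94377591 (4506 kb), lay within 1 LAD in each WT list, of 4679 kb, 5401 kb and 6071 kb. It was met by 5 LADs in both TSA lists, which still covered 96.1% (embryo 1.8) and 96.5% (embryo x17) of it. Most of its breaks were under 50 kb in each TSA list, so joining under 50 kb would leave fewer pieces. A block on chromosome 6 from 18030354 to 21668280 (3638 kb) was in 4 pieces in embryo 1.8 and 5 in embryo x17, with 96.7% and 94.0% covered. A block on chromosome 13 from 78871930 to 81003356 (2131 kb) was in 3 pieces in both, with 85.8% and 81.1% covered. The others, on chromosomes 9 and 14, were in 4 and 3 pieces. BIX01294 and DZNep lists covered 97.1% to 100% of these 5 blocks.

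Retreated edges lay at close positions in both TSA lists for some blocks. The block on chromosome 16 from 50843288 to 51568750 ended 276 kb early in both TSA lists, at 51293183 in embryo 1.8 and at 51292810 in embryo x17. The block on chromosome 2 from 77786182 to 78368993 ended 287 kb and 286 kb early, and that on chromosome 6 from 66158440 to 66840423 began 334 kb and 345 kb late. The edge with the largest retreat, on chromosome 2 from 94838368 to 95618890, was less alike, at 418 kb in embryo 1.8 and 344 kb in embryo x17. These edges were chosen for the size of the smaller retreat in the TSA lists, which is therefore a description.

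The longest gains common to both TSA lists were shorter than the longest losses. The first was on chromosome 17 from 6478151 to 6930219 (452 kb), where the TSA LADs measured 759 kb (embryo 1.8) and 452 kb (embryo x17). WT embryo 1.8 had a LAD 29.0 kb away, and the lists of BIX01294 and DZNep covered all or nearly all of it in embryo x17 and none in embryo 1.8. The second was on chromosome 5 from 143117253 to 143522528 (405 kb), where the TSA LADs measured 561 kb and 405 kb and the nearest WT LAD was 293 kb away. The third, on chromosome 2 from 27919183 to 28317129 (398 kb), was a LAD of 416 kb and 398 kb in TSA. Neither of these was covered in any BIX01294 or DZNep list. Of the 8 longest gains 3 were on chromosome 5, against 6 (13.04%) of all 46 gained intervals of 100 kb or more, and chromosome 17 also held 6. Some base in a BIX01294 or DZNep list was found for 5 of the 8 and for 21 (45.7%) of the 46.

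**Figure D5:**
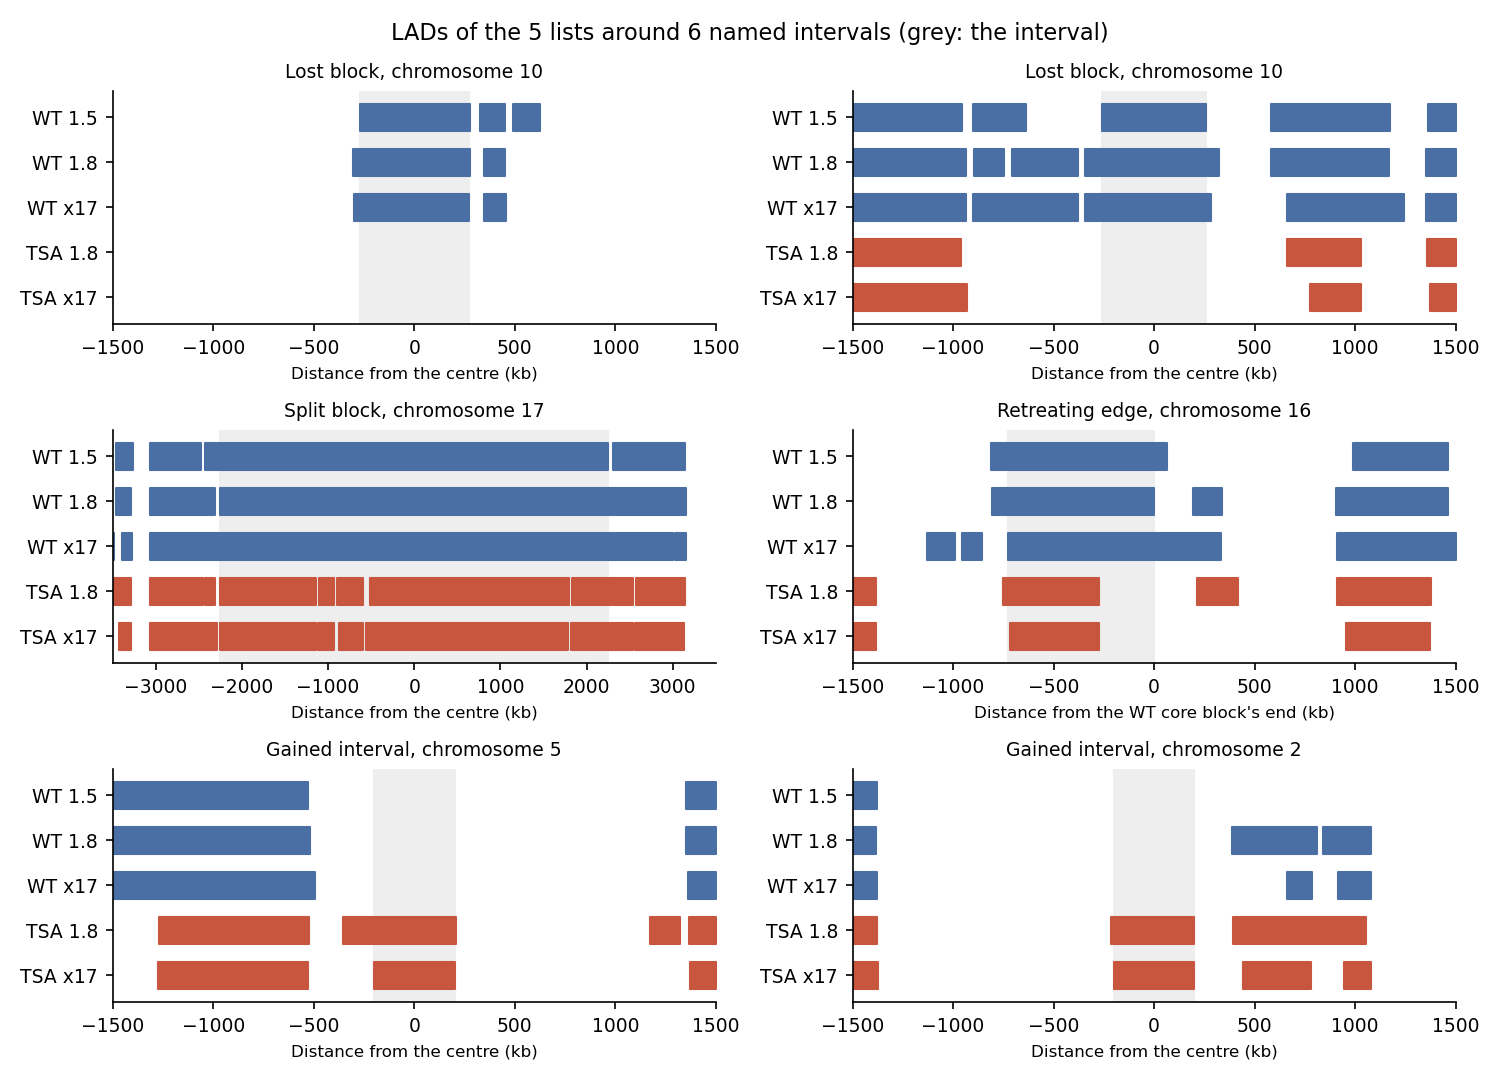
LADs in the 3 WT and 2 TSA lists around 6 regions (2 lost, 1 split, 1 with a retreated edge and 2 gained), against distance in kb from the region's centre (from the WT core block's end for the edge). Bars are LADs, and the 2 lost regions of 543 kb and 515 kb carry a LAD in all WT lists and none in TSA. The split block of 4506 kb is 1 LAD in WT and 5 in TSA, with most of its breaks under 50 kb.

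TSA was set beside the other drug lists of the same embryos, which had longer totals (1440 Mb to 1536 Mb). Against the WT list of the same embryo, TSA kept 85.7% of WT LAD bases on average (84.9% and 86.5%), and BIX01294 and DZNep kept 94.4% (91.9% to 97.3%, 4 lists). LADs lost whole came to 17.8% in TSA and 7.06% in the other drugs (2.98% to 10.97%). Split LADs came to 14.2% and 10.8% (7.94% to 11.9%), and retreated edges to 26.7% and 12.4% (6.29% to 17.7%). For each of these 4 measures both TSA lists lay outside the range of the other 4 lists. No other split of the 6 lists gave a difference as large (two-sided exact permutation p = 0.0667, the smallest of 15 splits, adjusted p = 0.0833 over 5 measures). These splits exchanged lists between embryos and took BIX01294 and DZNep as 1 group. The p-values therefore do not allow for the embryo that lists share. Gained bases did not separate the drugs, at 5.38% in TSA and 6.21% in the others (two-sided exact permutation p = 0.8, adjusted p = 0.8). With all lists reduced to one total length, TSA minus the other drugs was -4.48 percentage points for bases kept, 12.5 points for split LADs and 16.7 points for retreated edges. It turned to -3.95 points for LADs lost whole (two-sided exact permutation p = 0.4) and to 4.49 points for gained bases. Gained bases were then 11.6% in TSA and 7.13% in the others (6.24% to 7.85%). No other split gave as large a difference in them (two-sided exact permutation p = 0.0667, adjusted p = 0.0833). The direction of these last measures thus depended on that step, which was chosen after the data were seen. All of these pairs share the WT lists of embryos 1.8 and x17.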

How the data were processed

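DamID-seq LAD lists of MEFs were analysed, 1 list per pair of libraries labelled experiment and control. The deposited lists hold start and end positions (unit: other, in base pairs, build mm9 per the submitters' processing notes) with no score, so depth is unknown here and library quality was not weighed. The caller is not named in the labels. The paper that cites the series used Dam-LmnB1 and Dam-only virus and processed its reads with LADetector. It joined LADs under 25 kb apart and kept those over 100 kb. The authors' deposited lists hold gaps from 10001 bp and intervals of 100 kb or less, so both steps were applied here on chromosomes 1 to 19. Group, embryo and replicate number came from the labels, and lists with the same embryo name were taken as the same animal and paired. The members and lists were chosen with earlier results of these data known.

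Lists were compared by shared bases with Python 3.11.15, numpy 2.4.6 and scipy 1.17.1, and drawn with matplotlib 3.10.9. Tests were exact permutations over whole lists, without regard to shared embryos, adjusted by the Benjamini-Hochberg method over 12 results. Regions named are the 8 longest lost and gained, the 5 longest core blocks lost whole (the first 5 of the lost regions), the 5 core blocks in most TSA pieces, the 5 largest retreats common to both TSA lists, and the 3 chromosomes with the highest and lowest core loss. The code was tested on simulated data: 200 random interval sets, recounted for every base, gave 0 mismatches, and in the 1849 LADs of the WT embryo 1.5 list, all of 100 whole losses, 100 splits and 100 retreats made were found. Alternatives were the lists as deposited, other joining and length limits, adding X, other limits for a split, a loss and a retreat, equal total lengths, leaving out each list, and the replicate block. Neither the shAC lists nor the DamID signal tracks were used here.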

Additional observations from a re-analysis of the deposited data

How the results depend on the processing

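Of the 12 results on TSA against WT, 10 can change sign, and 113 of their 120 alternative values kept their direction while 7 reversed. The lengths of core lost and gained cannot be negative and are given as sizes. The number of LADs in TSA minus WT was -1016 intervals on the lists as deposited and -24.7 for LADs over 500 kb, the median length was 16.3 kb higher in TSA on the lists as deposited, and with lists reduced to one total length the share lost whole was -5.42 percentage points and the share gained 2.99 points. Leaving out 1 list in turn gave a difference in gained share of -1.82 to 0.748 points, with 0.468 points without WT embryo 1.8. For the other results the direction held without any 1 list, with ranges of 48.5 to 217.5 LADs, -139 to -73.9 Mb in total, -43.0 to -15.1 kb in median length, -52 to -37 LADs of 1 Mb or more, -7.17 to -5.32 points kept, 2.12 to 3.53 points split, 4.06 to 8.04 points lost whole, 8.31 to 11.99 points of edges retreated. Core lost ranged from 69.2 to 105 Mb and core gained from 13.2 to 52.0 Mb. The replicate block of same-embryo pairs gave 48.5 LADs, -139 Mb, -15.1 kb, -48 long LADs, -6.59 points kept, 1.87 points split, 7.46 points lost whole, 12.03 points retreated and -2.36 points gained, and it has no test with 2 pairs. With lists of one total length, core lost was 38.1 Mb, core gained 38.2 Mb and the split difference 11 points. Against BIX01294 and DZNep, with lists of one total length (an alternative chosen after seeing the data), the difference in LADs lost whole turned to -3.95 points and that in gained bases to 4.49 points, while bases kept, split LADs and retreated edges kept their direction. The cause of these changes was not tested, except that dropping the shortest LADs to equalise totals removes more of them from the longer lists by construction. No alternative could pass 0.05 with 3 lists against 2, so these values speak to direction and size and not to significance. Depth was not weighed, since the lists used here hold positions only.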

Other observations

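The X chromosome was outside the comparisons of autosomes. It held 119.8 Mb, 132.89 Mb and 134.01 Mb of LAD in WT embryos 1.5, 1.8 and x17, and 132.87 Mb and 133.39 Mb in TSA embryos 1.8 and x17. The TSA totals were thus slightly below the WT total of the same embryo in both pairs and above that of WT embryo 1.5. WT LAD bases on X were kept at 94.5% ± 1.78 from WT to TSA and at 93.3% ± 4.61 between WT lists (SD, 6 pairs each, which share lists), so the ranges overlapped. Bases on X in both TSA lists and no WT list came to 2.29 Mb. Whether X differs from the autosomes was not tested here.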
